A study of Microtus ochrogaster with 40 samples.

Results

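Col24a1 D1 nuclei are nuclei of prairie vole nucleus accumbens that carried transcripts of the dopamine D1 receptor gene (DRD1A) and of the collagen gene Col24a1, with no transcript of prodynorphin (Pdyn). Nuclei were selected on raw counts: a nucleus entered the set with at least 1 unique molecular identifier (UMI, 1 counted RNA molecule) of DRD1A, at least 1 of Col24a1, and 0 of Pdyn, DRD2, Adora2a, Gpr6, Drd3, Otof and Slc17a7. The last 6 of these genes mark D2 spiny neurons, Drd3 neurons, eccentric spiny neurons and cortical glutamate neurons. The rule found 2832 nuclei among 185995 kept nuclei, which is 1.52% of all and 9.96% of the 28427 D1 nuclei (DRD1A present, those 6 genes at 0). Since measured counts chose these nuclei, their DRD1A, Col24a1 and Pdyn levels are given as a description, and so are the levels of Rdh10, Hcrtr2, Npffr2 and Oprk1, the genes named as markers of the population.

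The study measured RNA of single nuclei from the accumbens of 40 voles (Microtus ochrogaster), each library holding the nuclei of 1 animal. Before tissue was taken, every animal had lived for 16 days with an unfamiliar partner, either a mate of the opposite sex or a peer of the same sex. Among females, 11 lived with a mate and 8 with a peer; among males, 11 and 10. No unpaired animals were used here, so each pairing difference is between 2 kinds of partner.

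Spiny neurons are the inhibitory output cells of the striatum. Those with D1 receptors form the direct pathway and usually make substance P and dynorphin, while those with D2 receptors make enkephalin. Dynorphin, the product of Pdyn, acts on the kappa opioid receptor, the product of Oprk1. Col24a1 encodes a fibrillar collagen, Rdh10 an enzyme that starts the making of retinoic acid from retinol, Hcrtr2 an orexin receptor and Npffr2 a receptor for neuropeptide FF.

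Libraries held 1825 to 12519 barcodes, of which 1793 to 8204 were kept, with a median of 662 to 2201 UMIs per kept nucleus. The library of male mate 2 stood apart: 6375 of its barcodes were under 500 UMIs, and its Col24a1 D1 nuclei had a median of 591.5 UMIs. Col24a1 D1 nuclei had a median of 2030 UMIs, against 2165 in Pdyn D1 nuclei (Pdyn present, Col24a1 at 0) and 2164 in D2 nuclei (DRD2 present with Adora2a or Gpr6, and DRD1A at 0). The remaining D1 nuclei were 3610 double-positive ones, with Col24a1 and Pdyn, and 12743 double-negative ones, with neither. Of the Col24a1 D1 nuclei, 645 (22.8%) had a barcode that another library also held, against 22.3% of all kept nuclei, and 7 barcodes belonged to the population in 2 libraries. Animals gave 6 to 221 Col24a1 D1 nuclei, with a median of 65. Tests across genes used the 33 animals with at least 20: 8 female mates, 6 female peers, 10 male mates and 9 male peers.

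The dopamine receptor and the collagen were each read at few molecules per nucleus. Of the Col24a1 D1 nuclei, 1732 (61.2%) had exactly 1 Col24a1 UMI. In oligodendrocyte nuclei, which should lack both genes, 5.94% of 15313 had a DRD1A UMI, 2.06% had a Col24a1 UMI and 0.183% met the whole rule, at a median of 727 UMIs. These background shares compare with a Col24a1 UMI in 22.7% of D1 nuclei at a median of 1987 UMIs and in 25.5% of D2 nuclei (Wilson 95% intervals 22.2 to 23.2% and 24.8 to 26.3%).

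Nuclei just inside the rule, with 1 Col24a1 UMI, had less of each of the 4 given markers than nuclei with 2 or more, and more than double-negative nuclei. Pooled over animals and in counts per 1000000 UMIs (CPM), nuclei with 1 Col24a1 UMI had 102 CPM of Rdh10 and nuclei with 2 or more had 122. Hcrtr2 was at 57.4 and 83.6 CPM, Npffr2 at 15.8 and 28.3, and Oprk1 at 239 and 278 in the same order. The double-negative D1 nuclei were at 44.1 CPM of Rdh10, 21.3 of Hcrtr2, 5.96 of Npffr2 and 161 of Oprk1. Double-positive nuclei, kept out by a Pdyn UMI alone, were at 111, 76.3, 15.6 and 260 CPM of these genes. For these 4 genes, the double-positive level was nearer to the Col24a1 D1 level than to the double-negative level. The double-negative set is a mixture, which limits it as a reference. Its Foxp2 was at 257 CPM, against 36.6 in double-positive nuclei and 68.0 in nuclei with 1 Col24a1 UMI. In the clustering described below, 14.7% of double-negative nuclei lay in clusters of other cell types. How far this mixture sets its marker levels was not tested.

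Absence of Pdyn did not follow presence of Col24a1 in single nuclei. A Pdyn UMI was found in 56.0% of the 6442 D1 nuclei with a Col24a1 UMI and in 42.0% of the 21985 without one. When each nucleus was thinned to 500 UMIs, the shares were 20.8% of 2212 and 17.9% of 26215. Double-positive nuclei outnumbered Col24a1 D1 nuclei in 31 of 40 animals. Pdyn in CPM was higher in D1 nuclei with Col24a1 than in those without it in 26 of 40 animals. The population is therefore given here as what its rule selects, the nuclei with a Col24a1 count and no Pdyn count.

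When all D1 nuclei were clustered without the 9 genes of the rule, 15 clusters formed, and cluster 4 held the most Col24a1 D1 nuclei. Cluster 4, with 4479 nuclei (15.8% of all D1 nuclei), held 1126 Col24a1 D1 nuclei (39.8%). Its leading genes by fold were Col24a1 itself, Hcrtr2, Npffr2, Disp3, Angpt1, Slc24a4, Mlip, Afap1, Gucy1a1 and Necab1, and Col24a1 had not been used to form it. In that cluster 48.6% of nuclei had a Col24a1 UMI and 48.3% had a Pdyn UMI. Cluster 5, led by Dlk1, Dpyd and Ush1c, held 607 (21.4%), beside 15.8% of all D1 nuclei and 17.8% of Pdyn D1 nuclei. Cluster 0, led by the calcium buffer gene Calb1, held 247 (8.72%), beside 11.7% of all D1 nuclei and 16.4% of Pdyn D1 nuclei. Cluster 2, led by the peptide genes Nts and Cartpt, held 140 (4.94%) and 3.77% of all D1 nuclei. In cluster 2, at a median of 3214 UMIs, 44.0% of nuclei had a Col24a1 UMI. By level, Col24a1 was at 242 CPM in cluster 2, 452 in cluster 4, 364 in cluster 7 and 275 in cluster 5. Cluster 7 held 253 (8.93%) and 4.57% of all D1 nuclei. It had a median of 886 UMIs and drew 23.7% of its nuclei from male mate 2. Of that animal's Col24a1 D1 nuclei, 73.9% were in cluster 7. Cluster 3, led by immediate early genes such as Arc, Fosb and Npas4, held 67 (2.37%) of the population and 3.56% of all D1 nuclei.

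Clusters 9 and 10 held few nuclei of the population. Cluster 10 (4067 nuclei), with Penk, Pcsk1, Foxp2, Sema5b and Tac2 among its leading genes, held 32 Col24a1 D1 nuclei (1.13%) and 653 Pdyn D1 nuclei (7.07%). Cluster 9 (1377 nuclei), in which Gabrq was a leading gene, held 12 (0.424%) and 169 (1.83%).

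**Figure D1:**
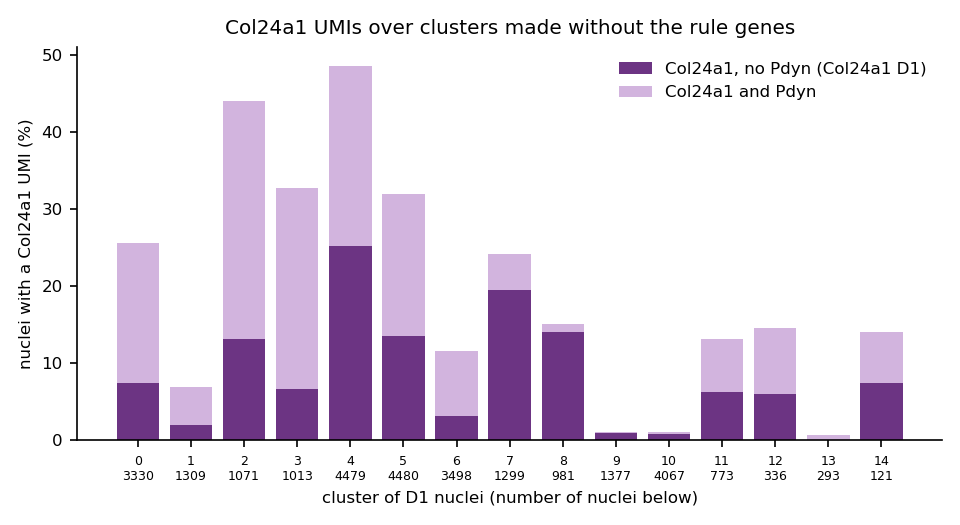
Stacked bars of the percent of nuclei with a Col24a1 UMI in each of the 15 clusters of D1 nuclei (number of nuclei under each cluster), dark where Pdyn is at 0 (Col24a1 D1) and light where a Pdyn UMI is present. Cluster 4 has the tallest bar (48.6%), followed by cluster 2 (44.0%). The bars are not adjusted for depth, and the median UMIs are 2048 in cluster 4 and 3214 in cluster 2.

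Part of the set lay in clusters of other cell types. Clusters led by interneuron, astrocyte, oligodendrocyte or microglia genes held 214 Col24a1 D1 nuclei (7.56%), 3.40% of Pdyn D1, 2.85% of double-positive and 14.7% of double-negative nuclei. Most were in cluster 8, with 137 nuclei, led by Vip, Kit, Kcnc2 and Cck, which are genes of interneurons. Cluster 13, led by Npy and Sst, held 0 of the 2832. Where leaving out these clusters ended the call of a named gene, turned its direction or moved its value by over 1.5 times, that value is given beside it. Cluster 1 (1309 nuclei) was led by genes of blood vessels such as Cxcl12, Flt1 and Ptprb, at 3652 CPM of Ppp1r1b. It had 1 listed vascular gene among its 10 leading genes, where 3 were asked for, and was not counted as another type. It held 26 Col24a1 D1 nuclei (0.918%) and 540 Pdyn D1 nuclei (5.84%); with it counted, Pdyn D1 nuclei would have the larger share of other-type nuclei. When it was left out too, in a fit added later, 2070 of 7756 genes were called against Pdyn D1 nuclei. D2 nuclei were not clustered, so in comparisons with D2 nuclei only the D1 side can be cleared in this way.

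The given markers were read in every group of animals. Rdh10 ran from 39.2 to 157 CPM over the 33 animals, with a median of 110.8 and a mean of 109 ± 28.7 (SD, n = 33). In the same animals its mean was 67.8 ± 21.9 CPM in Pdyn D1, 41.0 ± 10.7 in D2, 42.4 ± 16.8 in double-negative and 113 ± 32.2 in double-positive nuclei. The ranges of animals overlapped between Col24a1 D1 and Pdyn D1 nuclei for this gene.

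Hcrtr2 spread more widely, from 17.3 CPM in male mate 9 to 181 in female peer 6, with a median of 67.2 and a mean of 71.5 ± 37.8. Its mean was 47.3 ± 20.9 CPM in Pdyn D1 and 41.3 ± 20.5 in D2 nuclei, and the ranges overlapped. Male mate 9 was lowest for Hcrtr2 in Pdyn D1 and D2 nuclei too.

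Npffr2 was the scarcest of the 4: 0 in 6 of 33 animals, a median of 18.7 CPM and a highest value of 101 in female peer 6. Its mean was 22.8 ± 22.3 CPM, against 5.75 ± 6.62 in Pdyn D1 and 16.6 ± 11.8 in D2 nuclei. An Npffr2 UMI was present in 109 of the 2832 nuclei (3.85%), so its level in 1 animal rests on few molecules.

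Oprk1, the kappa receptor gene, ran from 156 to 400 CPM with a median of 265 and a mean of 256 ± 60.9. Its mean was 209 ± 42.9 CPM in Pdyn D1 and 163 ± 38.6 in D2 nuclei. Ranges overlapped between all of these populations. An Oprk1 UMI was present in 38.1% of Col24a1 D1 nuclei, an Rdh10 UMI in 19.8% and an Hcrtr2 UMI in 12.6%.

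**Figure D2:**
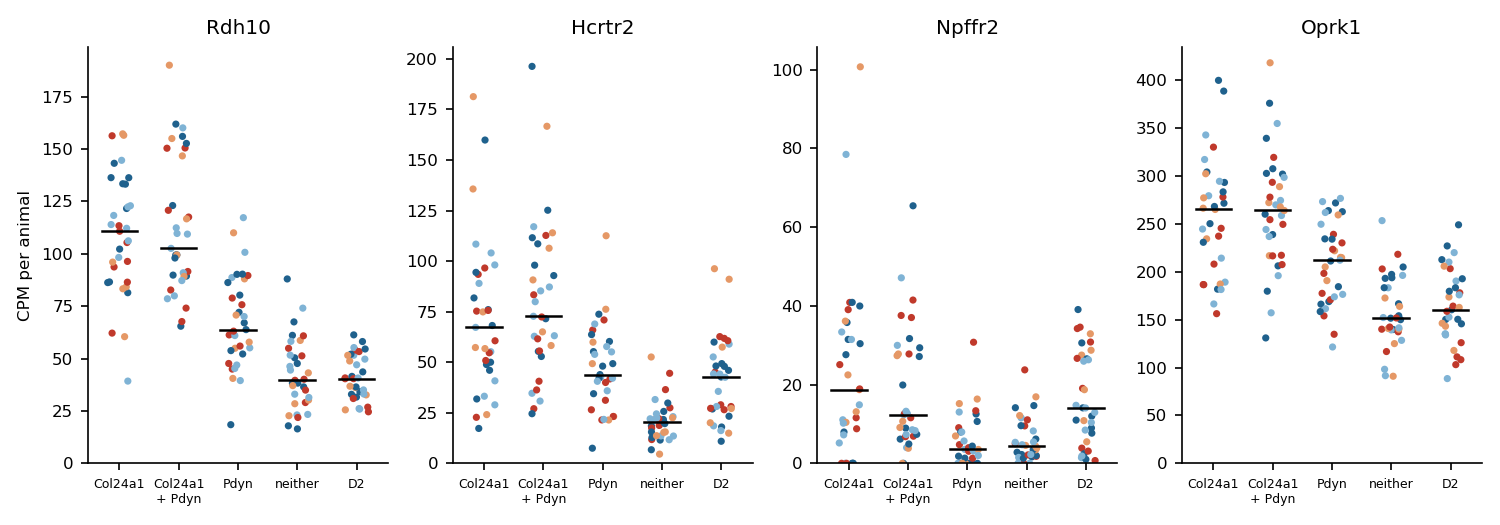
CPM of Rdh10, Hcrtr2, Npffr2 and Oprk1 in the nuclei of each population. Each point is 1 of 33 animals (female mate dark red, female peer orange, male mate dark blue, male peer light blue) and each line is the median. The Col24a1 D1 median of Rdh10 is 110.8 CPM and the Pdyn D1 median is 63.8.

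The label of D1 spiny neurons was checked against genes outside the rule. Ppp1r1b, which encodes the spiny neuron phosphoprotein DARPP-32, had a UMI in 79.4% of Col24a1 D1 nuclei, and Tac1, the substance P precursor gene of D1 neurons, in 2124 of the 2832. In oligodendrocyte nuclei, at a median of 727 UMIs against 2030, a Ppp1r1b UMI was found in 22.0% and a Tac1 UMI in 9.35%. Summed over 19 genes of all spiny neurons, the pooled level was 14162 CPM in Col24a1 D1, 14622 in Pdyn D1 and 15749 in D2 nuclei. Summed D1 genes other than DRD1A were at 1558, 2829 and 327 CPM, and summed D2 genes outside the rule at 274, 634 and 6646 CPM.

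Col24a1 differed between animals more than almost any other gene. In all D1 nuclei it ran from 11.2 CPM in female mate 5 to 430 in male peer 5, with a median of 192, a 38.5-fold range. In D2 nuclei it ran from 11.2 CPM in female mate 5 to 567 in male peer 1, with a median of 172, a 50.7-fold range. By the SD of log2(CPM + 5) across the 40 animals, Col24a1 ranked 4 of 8046 genes in D1 nuclei (SD 1.21, median gene 0.24) and 5 of 7889 in D2 nuclei (SD 1.25, median gene 0.30). Within cluster 4 alone it still ran from 33.1 CPM in male mate 6 to 1053 in female peer 7.

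Animals kept nearly the same order for Col24a1 in both kinds of spiny neuron. Across 40 animals, Pearson's r between log2 Col24a1 levels in D1 and D2 nuclei was 0.98 and Spearman's rho 0.97, given as a description since the rule used Col24a1 in D1 nuclei. Without the 2 animals farthest from the median r was 0.96, and within the 4 groups it ran from 0.96 to 0.99. The nuclei of an animal share a library, so this compares libraries as well as animals. The gene whose levels across animals were most like those of Col24a1 was ENSMOCG00000015550 in D1 nuclei (r = 0.58) and Efhd2 in D2 nuclei (r = 0.67), chosen among all genes of at least 20 CPM.

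The share of D1 nuclei that met the rule was 9.76% ± 5.32 (SD, n = 40) of D1 nuclei, from 1.03% in female mate 5 to 21.0% in male peer 1, with a median of 9.36%. The share counts nuclei by their Col24a1 UMIs, and Col24a1 levels in D1 and D2 nuclei moved together, so its relation with log2 Col24a1 in D2 nuclei (r = 0.88, rho = 0.90, n = 40) is given as a description. Against the share of D1 nuclei in cluster 4, which ran from 4.66 to 29.5% with a median of 16.3%, r was -0.02 and rho 0.01 (permutation p = 0.899; this relation was added after the data had been seen). No relation passed the test with the share of kept nuclei holding Slc17a7 (r = -0.14, permutation p = 0.397), the median UMIs of D1 nuclei (r = -0.16, p = 0.322) or D2 nuclei per D1 nucleus (r = -0.17, p = 0.287), and adjusted p over 6 relations was 0.476 for each of these 3.

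**Figure D3:**
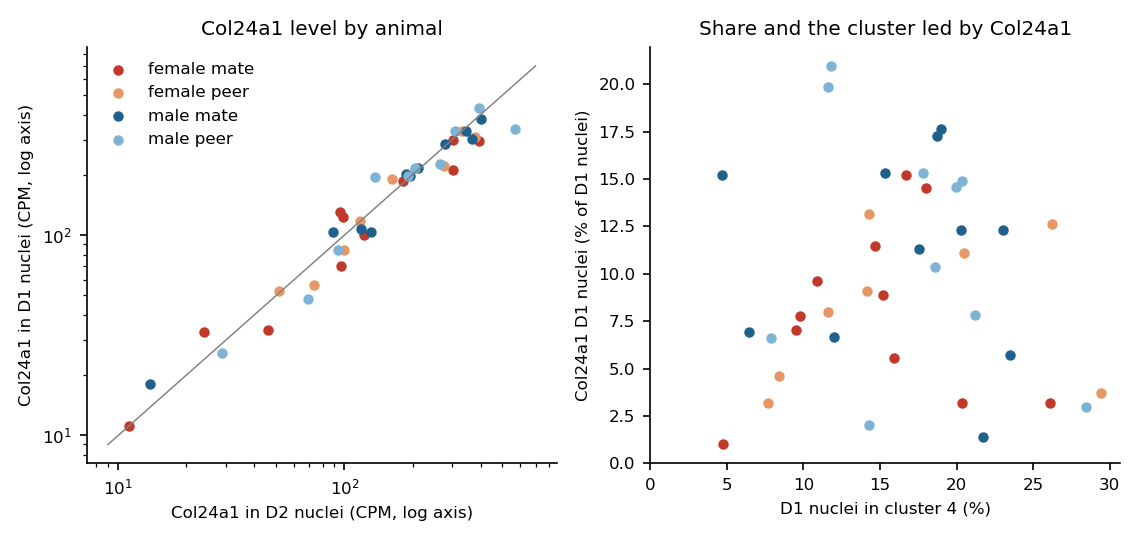
Left, Col24a1 CPM in D1 nuclei (vertical) against D2 nuclei (horizontal), on log axes, with a grey line of equality; right, the percent of D1 nuclei that are Col24a1 D1 (vertical) against the percent in cluster 4. Each point is 1 of 40 animals, coloured by group. The left panel forms a narrow band (r = 0.98) and the right panel shows none (r = -0.02).

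Neither partner type nor sex changed the share beyond its spread. In female mates the lowest, median and highest shares were 1.03, 7.76 and 15.2% of D1 nuclei, with a mean of 7.95% ± 4.61 (SD, n = 11). In female peers they were 3.20, 8.55 and 13.2%, with a mean of 8.19% ± 3.99 (n = 8). Male mates had 1.39, 12.3 and 17.6% with a mean of 11.1% ± 5.27 (n = 11), and male peers 2.04, 12.5 and 21.0% with a mean of 11.5% ± 6.63 (n = 10). All 4 groups overlapped widely. Mates minus peers was -0.35 percentage points (permutation within sex, p = 0.832, adjusted p = 0.947 over 3 tests). Females minus males was -3.25 percentage points (permutation p = 0.0606, adjusted p = 0.182), and the pairing difference differed between the sexes by 0.21 points (permutation p = 0.947).

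**Figure D4:**
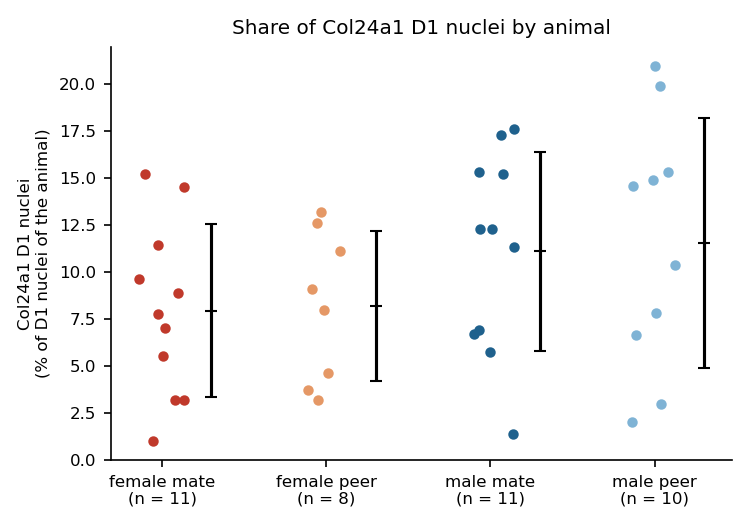
Percent of D1 nuclei that are Col24a1 D1 in each animal by group, with a bar at the group mean and its SD. Points of all groups overlap, from 1.03% to 21.0%.

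Against Pdyn D1 nuclei of the same animals, Col24a1 D1 nuclei had less of Oprm1, Penk, Tac1, Vgf and most tested immediate early genes, and more of Cxcl14, Astn2, Angpt1, Disp3 and Afap1. Summed counts per animal were tested with edgeR's quasi-likelihood test and Benjamini-Hochberg adjustment, with the animal as a block. Of 8310 genes, 2578 (31.0%) passed adjusted p 0.05, 1200 of them higher (14.4%) and 1378 lower (16.6%), around a median log2 fold change of 0.00. DESeq2, which tested 12847 genes, called 2724, 1475 higher and 1249 lower. With no filter on low counts, edgeR called 918 higher and 1727 lower of 16743 genes, so the balance of directions differed between these settings. These shares are the background for the counts of each gene group that follow.

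Among the genes that were higher, Astn2, which encodes an adhesion-related astrotactin, ran from 47.3 to 471 CPM with a median of 147 in Col24a1 D1 nuclei, and from 33.7 to 108.7 with a median of 62.7 in Pdyn D1 nuclei. It was higher in 33 of 33 animals, by 1.18 ± 0.09 on the log2 scale (adjusted p = 2.0e-22). Cxcl14, a chemokine gene, had a median of 71.0 CPM (18.8 to 304) against 31.2 (10.6 to 69.7), a difference of 1.52 ± 0.14 (adjusted p = 4.5e-18, 30 of 33 animals). Some animals overlapped for both genes. In double-negative D1 nuclei Cxcl14 was at 101 ± 71.5 CPM, the same mean as in Col24a1 D1 nuclei (101 ± 78.4). Astn2 was at 97.7 ± 45.9 CPM in double-negative and 173 ± 93.0 in Col24a1 D1 nuclei.

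Angpt1, which encodes an angiopoietin ligand of the TIE2 receptor, had 22.6, 79.3 and 161 CPM as lowest, median and highest, against 11.0, 32.8 and 76.2 in Pdyn D1 nuclei (log2 difference 1.06 ± 0.11, adjusted p = 9.7e-16). Disp3 was at 173 ± 87.8 against 78.2 ± 26.4 CPM (0.97 ± 0.08, adjusted p = 9.9e-20). Afap1, which encodes an actin filament-associated protein, was at 222 ± 126 against 108 ± 57.8 CPM (0.95 ± 0.07, adjusted p = 1.4e-25, 32 of 33 animals). Cpne8, a copine gene, was at 93.6 ± 30.8 against 46.9 ± 17.6 CPM and higher in 33 of 33 animals (0.87 ± 0.09, adjusted p = 4.7e-15), and P3h2, a collagen prolyl hydroxylase gene, was at 51.7 ± 19.5 against 28.9 ± 15.3 (0.76 ± 0.11, adjusted p = 9.9e-09). Angpt1, Disp3 and Afap1 were also leading genes of cluster 4. Against D2 nuclei, Cpne8 was called lower (-0.46 ± 0.07), with D2 nuclei at 118 ± 29.4 CPM. Astn2, Cxcl14, Angpt1, Disp3, Afap1 and P3h2 were called higher there.

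Zeb2, a transcription factor gene (47.0 ± 42.4 against 11.2 ± 8.00 CPM, log2 difference 1.76 ± 0.20, adjusted p = 4.1e-13), had the largest fold of the 10 higher genes chosen in the same way. Zeb2 is a leading gene of interneuron cluster 8, and without the clusters of other types its pooled level in Col24a1 D1 nuclei went from 39.6 to 8.62 CPM and it was no longer tested. Elavl2, an RNA-binding protein gene, went from 49.2 to 21.7 CPM and Igsf3 from 32.9 to 25.5, and neither was then tested. Cxcl14 kept a smaller difference, 0.78. Astn2 was then at 0.92, Angpt1 at 1.12, Disp3 at 1.09, Afap1 at 0.90, Cpne8 at 0.88 and P3h2 at 0.70, all still called.

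Dlk1, which encodes a membrane protein related to Notch ligands, had the largest fall of the 10 lower genes chosen by fold and by evenness over animals. It had a median of 9.09 CPM (0 to 71.6) in Col24a1 D1 nuclei and 111 (9.99 to 215) in Pdyn D1 nuclei, and was lower in 33 of 33 animals by 2.69 ± 0.20 on the log2 scale (adjusted p = 4.5e-24). Dlk1 led cluster 5, which held 21.4% of Col24a1 D1 nuclei and 17.8% of Pdyn D1 nuclei. Ecel1, an endopeptidase-like gene, fell by 1.86 ± 0.16, Inhba, an activin subunit gene, by 1.81 ± 0.20, Rhcg, an ammonium transporter gene, by 1.79 ± 0.17, and Maml3, a Notch coactivator gene, by 1.60 ± 0.17 on the log2 scale. Nptx2, which encodes a synaptic pentraxin, was at 41.0 ± 28.0 against 133 ± 51.7 CPM and fell by 1.58 ± 0.10 (adjusted p = 1.3e-28, 32 of 33 animals). Without the clusters of other types these 6 differences ran from -1.48 (Nptx2) to -2.67 (Dlk1).

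**Figure D5:**
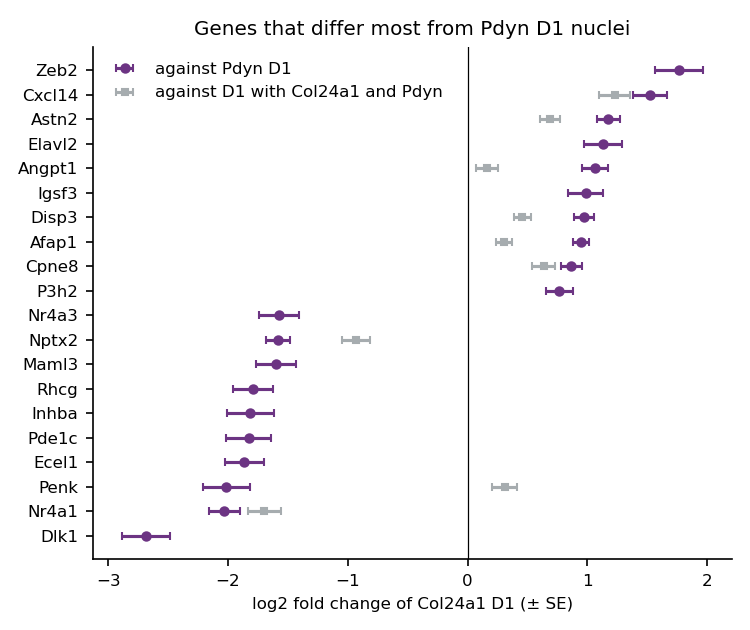
Log2 fold change of the 10 higher and 10 lower genes of Col24a1 D1 against Pdyn D1 nuclei (purple) and of the same genes against double-positive nuclei (grey, where tested). Bars are standard errors from edgeR. Dlk1 sits lowest at -2.69 and Zeb2 highest at 1.76.

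Opioid, orexin and neuropeptide FF genes were read as ligands and receptors. Leaving out the given markers, 4 of this group were tested against Pdyn D1 nuclei, 1 was higher and 2 lower, with a median of -0.63 against 0.00 for all genes. The higher one, Oprd1, the delta opioid receptor gene, was at 8.10 ± 10.8 against 2.96 ± 2.50 CPM, and without the clusters of other types its difference was -0.14 (adjusted p = 0.858).

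The mu opioid receptor gene Oprm1 fell in every animal. It had a median of 77.6 CPM (17.6 to 195) in Col24a1 D1 nuclei and 215 (115 to 322) in Pdyn D1 nuclei. The difference was -1.42 ± 0.08 on the log2 scale (adjusted p = 1.4e-35), -1.14 ± 0.08 against D2 nuclei and -0.51 against double-positive nuclei, called each time, and -1.37 without the clusters of other types. Penk, the enkephalin precursor gene, had a median of 123 CPM (24.1 to 362) against 402 (39.8 to 1674) and fell by 2.01 ± 0.20 (adjusted p = 2.1e-16, 30 of 33 animals). Ranges overlapped for both genes, more for Penk. Penk was a leading gene of cluster 10, which held a larger share of Pdyn D1 than of Col24a1 D1 nuclei, and the part of that cluster in the difference was not tested. Oprm1 was a leading gene of cluster 6, as were Tac1 and Pdyn. That cluster held 108 Col24a1 D1 nuclei (3.81%) and 2145 Pdyn D1 nuclei (23.2%), and its part in the Oprm1 difference was not tested.

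Of 26 peptide genes found, Pdyn among them, 10 others were tested: 7 were lower, 1 higher and 2 not called, with a median of -0.97. Without the clusters of other types 5 of 9 were lower and 0 higher (median -0.84). Tac1 was lower in 33 of 33 animals, with a median of 1099 CPM (748 to 1576) against 2419 (1388 to 3427), a difference of -1.12 ± 0.07 (adjusted p = 7.0e-32). Vgf, which encodes a secreted peptide precursor, was at 324 ± 123 against 868 ± 140 CPM and lower in 33 of 33 animals (-1.43 ± 0.05, adjusted p = 5.6e-55, the lowest of all genes). Both were also lower against double-positive nuclei, by 0.60 and 0.81 on the log2 scale. Tac1 was a leading gene of cluster 6, whose part in the Tac1 difference was not tested. Tac1 and Vgf, and Tac2 and Scg2 in what follows, were named after their values were seen.

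The calls of Sst, Npy and Cck ended when the clusters of other types were left out. Penk, Tac2 (from -0.76 to -1.32) and Scg2 (from -0.82 to -0.84) were still lower. Sst fell by 3.35 ± 0.25 and Npy by 2.77 ± 0.21 on the log2 scale against Pdyn D1 nuclei, but without those clusters Sst in Pdyn D1 nuclei went from 344 to 23.3 CPM and its difference to -0.14 (adjusted p = 0.665). Npy in those nuclei went from 166 to 15.6 CPM and was no longer tested. Cck, the 1 higher peptide gene, was at a median of 39.6 CPM (8.78 to 2476) against 33.5 (4.99 to 114), and its difference went from 1.86 to -0.01. The summed level of 10 interneuron genes was 342 CPM in Col24a1 D1 and 607 in Pdyn D1 nuclei, and 98.8 and 97.2 without those clusters.

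Receptors for other neuropeptides and hormones went both ways: of 33 found, 10 were tested, 4 were higher and 2 lower (median 0.06). Adcyap1r1, the PACAP receptor gene, was at 181 ± 61.6 against 123 ± 32.6 CPM (0.54 ± 0.07, adjusted p = 1.0e-10, 30 of 33 animals). Npy1r, a neuropeptide Y receptor gene, was higher by 0.73 ± 0.16 and Tacr3, the neurokinin B receptor gene, by 0.59 ± 0.17. Tacr3 was not called without the clusters of other types (0.30, adjusted p = 0.169).

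Of 12 tested monoamine, acetylcholine and cannabinoid receptor genes, 3 were higher and 3 lower (median 0.03). Without the clusters of other types 1 of 11 was higher and 5 were lower (median -0.10), Htr2a (-0.91) and Chrm1 (-0.20) among the lower ones. The serotonin receptor gene Htr4 was at 86.5 ± 41.4 against 56.3 ± 24.5 CPM, higher by 0.70 ± 0.10 (adjusted p = 4.8e-09, 30 of 33 animals), while Htr2c fell by 0.68 ± 0.19. Cnr1, the cannabinoid receptor gene, changed direction: it was higher by 0.81 ± 0.15 in the full set, at a median of 225 CPM (101 to 4726) against 192 (125 to 295), and lower by 0.46 (adjusted p = 3.2e-08) without the clusters of other types. Animals were divided on the full set, with Cnr1 higher in 17 and lower in 16.

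Of retinoid genes other than Rdh10, 10 were tested, with 3 higher and 0 lower (median 0.11) by edgeR; 0 were lower at an unadjusted p under 0.05 or by DESeq2. Rbp4, a retinol-binding protein gene, was lower once the clusters of other types were left out (-0.67, adjusted p = 0.00041). Rdh13 and Rdh5, which encode retinol dehydrogenases, were higher by 0.40 ± 0.15 (adjusted p = 0.0304) and 0.30 ± 0.09 (adjusted p = 0.00548). Rdh13 was not called with no filter on low counts. Rdh5 was not called without the animal block, or without nuclei of 3 or more glial or vascular UMIs. Rarb, a retinoic acid receptor gene of spiny neurons, was at 433 ± 91.7 against 350 ± 42.4 CPM and higher by 0.25 ± 0.04 (adjusted p = 7.0e-08).

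Immediate early genes, which neurons switch on within minutes of activity, were lower in nearly every tested member. Of 15 tested genes of 20 found, 14 were lower and 0 higher by edgeR, with a median of -0.92; 0 were higher at an unadjusted p under 0.05 or by DESeq2, which called 13 lower. Nr4a1, an orphan nuclear receptor gene, had a median of 14.5 CPM (0 to 72.3) against 88.2 (36.7 to 270), lower in 33 of 33 animals by 2.03 ± 0.13 on the log2 scale (adjusted p = 1.3e-29). Fosb fell by 1.93 ± 0.25 and Nr4a3 by 1.58 ± 0.17.

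Among members named after their values were seen, Arc was at 97.8 ± 87.0 against 243 ± 122 CPM and lower in 33 of 33 animals (-1.31 ± 0.10, adjusted p = 5.6e-22). Npas4 was at 108 ± 85.8 against 227 ± 104 CPM (-1.12 ± 0.09), and Fos at 13.5 ± 16.1 against 42.8 ± 24.5 CPM (-1.51 ± 0.18). Against D2 nuclei 14 of 15 were also lower (median -0.81), and against double-positive nuclei 7 of 7 (median -0.67); these comparisons share the Col24a1 D1 nuclei. The immediate early gene cluster 3 held 2.37% of Col24a1 D1 nuclei, and 78.1% of its nuclei had a Pdyn UMI. Without the clusters of other types 13 of 14 tested were lower, and without male mate 2, 14 of 15.

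Of 25 tested genes of cAMP and calcium signalling in spiny neurons, 14 were lower and 3 higher (median -0.15), and 10 were lower and 5 higher without the clusters of other types (median -0.09). Ppp1r1b was at 1158 ± 244 against 1693 ± 345 CPM, lower in 32 of 33 animals by 0.56 ± 0.04 on the log2 scale (adjusted p = 6.2e-29). Cluster 1, at 3652 CPM of Ppp1r1b, held 0.918% of Col24a1 D1 and 5.84% of Pdyn D1 nuclei. It stays in the values given without the clusters of other types. Cluster 0, at 2210 CPM, held 8.72% and 16.4%, and its part in the Ppp1r1b difference was not tested. Pde1c, a phosphodiesterase gene, fell by 1.83 ± 0.19 and Dgkb, a diacylglycerol kinase gene, by 0.68 ± 0.06. Of 19 genes of all spiny neurons, 11 were lower and 5 higher (median -0.10), and 8 and 5 without those clusters. Gad1, which encodes a GABA-synthesising enzyme and was among the higher ones, went from 0.18 to -0.48 without the clusters of other types, and from 0.27 to -0.39 against D2 nuclei, called each time. Rasd2 fell by 0.45 ± 0.07, while Rgs9, a striatal regulator of G protein signalling named after its values were seen, was higher by 0.24 ± 0.03 (1514 ± 372 against 1258 ± 234 CPM).

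Glutamate and GABA receptor subunits numbered 29 tested, with 7 higher and 12 lower (median -0.10). Gabrq fell by 1.56 ± 0.18, Grin3a by 1.24 ± 0.18 and Gabra5 by 0.45 ± 0.06 on the log2 scale. Gabrq was a leading gene of cluster 9, whose part in the difference was not tested. Channel genes were balanced, with 11 higher and 11 lower of 35 (median 0.01). The fast potassium channel gene Kcnc1 was higher by 0.83 ± 0.10, and by 0.36 without the clusters of other types; Kcnn2, a calcium-activated potassium channel gene, was higher by 0.48 ± 0.06 (0.24 without them) and Trpm3 fell by 0.72 ± 0.09.

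Matrix and adhesion genes went both ways. Of 27 collagens found, Col24a1 among them, 4 others were abundant enough to test, and 1 was higher and 2 lower (median -0.07). Col16a1 was higher by 0.38 ± 0.12 (adjusted p = 0.0114), Col25a1 fell by 0.63 ± 0.20 (no longer tested without the clusters of other types) and Col11a1 by 0.30 ± 0.12. DESeq2 called 0 of these collagens higher and 1 lower. Col16a1 and Col11a1 were not called by DESeq2, without the animal block, or with at least 2 UMIs of Col24a1 or Pdyn. Of 38 axon guidance and adhesion genes, 10 were higher and 11 lower (median 0.05): Epha3, an ephrin receptor gene, was higher by 0.85 ± 0.15, and the semaphorin genes Sema5b and Sema3e fell by 1.52 ± 0.18 and 0.80 ± 0.14. Sema5b was also a leading gene of cluster 10, and the part of that cluster in its difference was not tested.

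Of 21 tested striatal transcription factor genes, 3 were higher and 8 lower (median -0.12), and Tshz1 fell by 1.29 ± 0.18. Striosome genes, those of the patch compartment, were lower in 5 of 7 (median -0.72), with Sema5b and Oprm1 among the lower ones. Pdyn is itself on this list, and the nuclei compared here were chosen by it. Against double-positive nuclei, 2 of 6 tested striosome genes were higher (Foxp2 0.74, Lypd1 0.30) and 2 lower (Tac1 -0.60, Oprm1 -0.51), with a median of 0.02. Matrix compartment genes were higher in 4 of 9 and lower in 2 (median 0.14). Cnr1, among the higher ones at 0.81, was lower by 0.46 without the clusters of other types. Calb1, a matrix gene, was lower by 0.95 ± 0.07, at 198 ± 91.6 against 387 ± 107 CPM. Calb1 led cluster 0, which held 8.72% of Col24a1 D1 and 16.4% of Pdyn D1 nuclei. The part of that cluster in the Calb1 difference was not tested. Of 4 tested eccentric spiny neuron genes 4 were lower (median -0.73), and of 3 tested Drd3 neuron genes 1 was higher and 1 lower (median 0.13).

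Of 3 oligodendrocyte and 5 astrocyte genes tested, 0 were called against Pdyn D1 nuclei by edgeR, by DESeq2 or at an unadjusted p under 0.05. Without the clusters of other types the astrocyte gene Slc1a2 was lower (-0.20, adjusted p = 0.0188). Summed levels were 304 and 251 CPM for 6 oligodendrocyte genes, and 780 and 765 CPM for 8 astrocyte genes, in Col24a1 D1 and Pdyn D1 nuclei. Summed genes of microglia were at 36.5 and 30.5 CPM, of vascular cells at 5.72 and 7.62, of oligodendrocyte precursors at 16.7 and 20.4, of glutamate neurons at 14.1 and 10.2, and of cholinergic interneurons at 4.25 and 1.78. Ebf2 of the vascular list and Gbx2 of the cholinergic list were at 0 in the pooled Col24a1 D1 nuclei. Immature neuron genes were at 101 and 71.2 CPM, and the 1 tested was higher (0.67).

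Double-positive D1 nuclei, which share Col24a1, were compared next. This comparison was added after the others and used 32 animals and fewer genes, so its number of calls cannot be set against those of the other comparisons. Of 5498 genes, 806 (14.7%) were called, 333 higher (6.06%) and 473 lower (8.60%). Angpt1 was not called here (0.16 ± 0.09, adjusted p = 0.241), while Afap1 was higher by 0.30 ± 0.07, Disp3 by 0.46 ± 0.07, Astn2 by 0.69 ± 0.08, Cpne8 by 0.64 ± 0.10 and Cxcl14 by 1.23 ± 0.13. Nr4a1 fell by 1.70 ± 0.14 and Nptx2 by 0.93 ± 0.12. Without the clusters of other types Astn2 was at 0.33, and Cxcl14 and Nr4a1 were no longer tested. Penk was higher here by 0.31 ± 0.10 (adjusted p = 0.0306), opposite to its fall against Pdyn D1 nuclei. Both comparisons share the Col24a1 D1 nuclei.

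Against D2 nuclei, Col24a1 D1 nuclei had more of the tested D1 genes and less of the tested D2 genes outside the rule. Of 8310 genes, 2738 (32.9%) were called, 1274 higher (15.3%) and 1464 lower (17.6%), around a median of 0.00. DESeq2 called 3184 of 13497, 1845 higher and 1339 lower, and edgeR with no filter 1133 higher and 2089 lower. Of 4 tested D1 genes 4 were higher (median 2.91), and of 6 tested D2 genes 6 were lower (median -2.91). D2 nuclei hold Col24a1 at 224 ± 128 CPM (n = 33), so Col24a1 is shared by both kinds of spiny neuron in these animals. Over all 40 animals the D2 level was 194 ± 134 CPM, and in the 7 animals left out it ran from 11.2 to 99.8.

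The 5 genes that rose most were above D2 nuclei in 33 of 33 animals, with no overlap for Chrm4, the muscarinic M4 receptor gene: 81.4 to 234 CPM (median 159) against 2.18 to 22.2 (median 8.45). Its difference was 3.94 ± 0.10 (adjusted p = 3.0e-72). Erbb4, a neuregulin receptor gene, was at 115 ± 45.8 against 6.78 ± 4.42 CPM, Slc35d3 at 160 ± 54.8 against 13.7 ± 7.51, Sntg2 at 288 ± 73.2 against 25.3 ± 14.0, and Asic4, an acid-sensing channel gene, at 170 ± 47.1 against 14.5 ± 8.10.

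Penk fell the most, from a median of 5883 CPM in D2 nuclei (3656 to 8338) to 123 (24.1 to 362), with no overlap and a difference of -5.66 ± 0.15 (adjusted p = 2.4e-68). Fig4, a phosphoinositide phosphatase gene, was at 22.5 ± 11.7 against 356 ± 89.1 CPM (-4.05 ± 0.09, adjusted p = 1.4e-79). Grik3, a kainate receptor gene, was at 1.98 ± 4.22 against 66.0 ± 13.6 CPM, the purinergic receptor gene P2ry1 at 3.01 ± 6.36 against 74.8 ± 16.7, and Nts, the neurotensin gene, at 14.9 ± 26.6 against 173 ± 52.3 (lower in 32 of 33 animals). For Grik3 and P2ry1 the median animal had 0 CPM in Col24a1 D1 nuclei.

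By role and without the given markers, of 4 tested opioid, orexin and neuropeptide FF genes 1 was higher and 3 lower than in D2 nuclei (median -2.19), and Oprd1 fell by 3.24 ± 0.18 (by 4.70 without the clusters of other types). Other peptide receptors were higher in 5 and lower in 3 of 10 (median 0.20): the somatostatin receptor gene Sstr4 was higher by 3.23 ± 0.14 and the cholecystokinin receptor gene Cckbr by 2.02 ± 0.09. Monoamine, acetylcholine and cannabinoid receptors were higher in 4 and lower in 5 of 12 (median -0.10), and the serotonin receptor gene Htr2a fell by 1.91 ± 0.18 (by 3.06 without those clusters). Retinoid genes other than Rdh10 were higher in 3 and lower in 1 of 10 (median 0.05). Neuropeptides were higher in 3 and lower in 5 of 10 (median -0.28), and immediate early genes, led by Nr4a1 (-1.75 ± 0.13) and Fosb (-1.74 ± 0.24), were lower in 14 of 15.

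The remaining groups differed from D2 nuclei in both directions. Axon guidance and adhesion genes were higher in 17 and lower in 12 of 38 (median 0.08), channels higher in 10 and lower in 12 of 35 (median -0.09), and glutamate and GABA receptor subunits higher in 7 and lower in 13 of 29 (median -0.09). Genes of cAMP and calcium signalling were higher in 4 and lower in 16 of 25 (median -0.22), and Ppp1r1b differed by -0.49 on the log2 scale, and striatal transcription factors higher in 6 and lower in 11 of 21 (median -0.15). Of 7 striosome genes 4 were higher and 3 lower (median 0.81), and of 9 matrix genes 3 were higher and 5 lower (median -0.26). Oprm1 was at 83.0 ± 44.9 CPM against 170 ± 44.7 in D2 nuclei and lower in 33 of 33 animals.

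Within Col24a1 D1 nuclei, the partner type called no gene. Of 5918 genes tested over the 33 animals, 0 (0.00%) passed adjusted p 0.05 for mates against peers with edgeR, 217 passed 0.05 before adjustment, and 0 passed in DESeq2. ENSMOCG00000013794 (0.46 ± 0.14) and Thoc7 (-0.56 ± 0.18) were among the lowest by p and were not called.

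Females and males differed in 1 gene of 5918 (0.0169%), Kdm6a, which encodes a histone demethylase and is X-linked in other mammals. It had a lowest, median and highest of 253, 333 and 463 CPM in 14 females and of 102, 238 and 373 in 19 males. All 14 females were above the male mean, but the groups overlapped. The difference was 0.57 ± 0.11 (edgeR adjusted p = 0.0196, DESeq2 adjusted p = 0.00605), and 336 genes had an unadjusted p under 0.05. It was not called with at least 40 nuclei per animal, or with at least 2 UMIs of Col24a1 (21 animals and 3343 genes tested). Nor was it called when nuclei with 3 or more glial or vascular UMIs were left out.

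The pairing difference did not differ between the sexes for any gene by edgeR: 0 of 5918 were called (0.00%), 268 had an unadjusted p under 0.05 and DESeq2 called 0. Map1a, a microtubule-associated protein gene, had the lowest p (0.73 ± 0.18, adjusted p = 0.682), followed by Dhx16 (-1.16 ± 0.32) and Mau2 (-0.76 ± 0.22). Whether the pairing difference differed between Col24a1 D1 and Pdyn D1 nuclei was tested on 6521 genes: 0 were called (0.00%) by edgeR and 0 by DESeq2, while 258 had an unadjusted p under 0.05. First by p were ENSMOCG00000020926 (0.87 ± 0.24), 2210408I21Rik (-0.51 ± 0.14) and Bckdhb (-0.64 ± 0.18). Of the given markers, 3 were abundant enough to test for pairing, sex and their interaction, and 0 were called by edgeR or had an unadjusted p under 0.05.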

How the data were processed

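Nuclear RNA of the accumbens was measured by 10x Genomics single-nucleus sequencing in 40 libraries, 1 per vole. The authors deposited UMI counts per gene and barcode, made with Cell Ranger 3.1.0 per the submitters' processing notes; the genome build is not given in the sources used here. All values were computed from these raw counts. Kept barcodes had 500 UMIs or more and no more than 5% of them mitochondrial; no doublet caller was run. The members and lists were chosen with earlier results of these data known, and 456 of 486 distinct list genes were used. Replicate numbers follow accession order and pair nothing. Cohabiting partners may both be among the 40 animals, and tests between groups treated all animals as independent. For groups of animals and for relations across animals, the p-values measure the spread between animals. In fits with the animal as a block, they measure how differences within animals vary from animal to animal.

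Counts were summed per animal and population (at least 20 nuclei in each) and tested with edgeR 4.0.16 in R 4.3.3 (TMM, filterByExpr, quasi-likelihood test, Benjamini-Hochberg), with genes of the rule left out of the named results; DESeq2 1.42.0 was an alternative. Log2 fold changes are given ± standard error, CPM and shares as mean ± SD over animals. The scripts were tested on simulated data. Between populations, the named genes were the 10 higher and 10 lower (5 and 5 against D2) called genes with the largest fold, at least 20 CPM in the higher population and 1 direction in 90% of animals; for pairing and sex, the called genes or the 3 of lowest p (1 pairing result is not reported here); from each list, the called genes with the largest fold. Shares were tested by permutation (100000 resamples, 2-sided). D1 nuclei were clustered with scanpy 1.11.5 (2000 variable genes, 30 components, 15 neighbours, resolution 1). Wilson intervals cover counting error only.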

Additional observations from a re-analysis of the deposited data

Results flagged for a closer look

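In 4 of 70 sets of animals searched for a value far from its group, the highest or lowest animal stood apart by Dixon's criterion; chance flags about 1 in 20 such sets. Rdh10 in the Col24a1 D1 nuclei of male peer 3 was 39.2 CPM, below the next of 9 male peers at 98.3. Npffr2 in male peer 3 was 78.5 CPM, above the next male peer at 33.4. Npffr2 in female peer 6 was 101 CPM, above the next of 6 female peers at 36.1. 2210408I21Rik in female mate 11 was 37.8 CPM, below the next of 8 female mates at 91.0. Male peer 3 gave 27 Col24a1 D1 nuclei, female peer 6 gave 21 and female mate 11 gave 23.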

How the results depend on the processing

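Between the groups of animals, no paired analysis was possible because replicate numbers follow accession order and only name animals. Populations were compared within animals, with the animal as a block, and without that block 1990 genes were called against Pdyn D1 and 2082 against D2 nuclei. Calls against Pdyn D1 nuclei went from 2578 to 1642 with at least 2 UMIs of Col24a1 or Pdyn (20 animals, 6726 genes tested). They went to 1537 without nuclei of 3 or more glial or vascular UMIs. Calls against D2 nuclei went from 2738 to 1473 and 1697 in the same order. With no filter on low counts, pairing called 2 genes, Cck (1.57, 794 UMIs in all) among them, and its difference between populations called 5, Sst, Vip, Cnr1 and Tac2 among them. Cck and Vip were leading genes of interneuron cluster 8, and Sst of interneuron cluster 13. In Col24a1 D1 nuclei Sst had 222 UMIs in all, and Vip 137 UMIs in 16 animals. The part of those clusters in these calls was not tested. Sex called 2 genes with no filter (Kdm6a and Bcan) and 3 without clusters of other cell types (these and Kdm5c). It called 0 at 40 nuclei or more, at 2 Col24a1 UMIs or more, and without nuclei of 3 or more glial or vascular UMIs. In those settings Kdm6a was at 0.55, 0.63 and 0.48.

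The pairing difference in the share reversed to 0.17 points without male peer 1. Its difference between the sexes reversed to -3.83 points as a share of nuclei with Col24a1 or Pdyn, -1.82 after thinning and -0.44 at 1000 UMIs. It reversed to -0.62 without nuclei of 3 or more glial or vascular UMIs, -0.29 without female peer 1 and -0.83 without male peer 1. The relation with cluster 4 was 0.13 without 2 animals. Among named genes, Cnr1 (-0.46), Oprd1 (-0.14), Gad1 (-0.48) and Cck (-0.0078) reversed without clusters of other cell types and Col11a1 (0.00070) with at least 2 UMIs of Col24a1 or Pdyn; of the others, 740 values kept side and direction, 18 lost the call and 1 gained it. Genes of few UMIs, such as Npffr2 (a UMI in 3.85% of the nuclei), rest on few molecules. Of the nuclei, 61.2% entered the set on 1 Col24a1 UMI.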
